A study of Mus musculus with 4 samples.

Results

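Heat shock proteins and J-domain chaperones were followed as a gene family in the fetal mouse brain after ethanol exposure. Members were all genes whose single annotated symbol begins with Hspa, Hspb, Hspd, Hspe, Hsph, Hsp90, Dnaja, Dnajb or Dnajc, which gave 72 of the 19938 genes with a symbol of their own. The 72 genes were read by 95 probe sets, and where a gene had more than 1 the brightest set on average stood for it. The prefix Hspb also admits Hspb11, Hspbp1 and Hspbap1, which are not small heat shock proteins. Another 10 probe sets name a family member beside other genes and were not members. Hspa1b and Hsp90ab1 had no single-symbol probe set and were not analysed here.

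The tissue was whole brain of C57BL/6J fetuses, an inbred mouse strain, at embryonic day 16. Dams of the ethanol group had been injected with 2.5 g of ethanol per kg in saline on gestational days 14 and 16, and control dams with saline. Each array carried pooled RNA from 3 mice of unknown sex, so 12 mice gave 2 ethanol and 2 control arrays. The litters behind a pool are not stated, and p-values therefore describe no more than the spread among pools, which may be technical. The values are log2 brightness, on which a difference of 1 is 2-fold.

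Heat shock proteins of the Hsp70 and Hsp90 families bind and release unfolded proteins in cycles driven by ATP. J-domain proteins deliver clients to Hsp70 and stimulate its ATPase. Some chaperones are strongly transcribed when heat shock factor binds heat shock elements, while others are made at all times or serve the endoplasmic reticulum (ER) or mitochondria. ER chaperones are induced by the unfolded protein response, in part through the ER stress response element. Small heat shock proteins hold unfolding proteins without ATP, and several are abundant in muscle.

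The array medians lay between 8.01 and 8.04, and all 8 neuron and all 6 radial glia markers stood above the median of every array. As ethanol minus control, the neuron markers differed by -0.38 (Tubb3) to 0.19 (Snap25), with 2 of the 8 below 0. The arrays also differed in markers of other tissues. All 21 skeletal muscle markers were highest in control 1, and 16 of them were at least 2-fold higher there than in control 2. Ethanol 2 exceeded ethanol 1 at least 2-fold in 7 of the 21. The log2 of their summed brightness was 11.93 and 13.27 in ethanol and 14.76 and 11.88 in control, and 0 of the 21 lay below the lower quartile on every array. Control 1 was also the highest array for 6 of 6 mitosis, 6 of 6 pericyte and meningeal and 5 of 5 endothelial markers. The sex-linked RNA Xist stood at 11.96 and 12.80 in ethanol and 6.10 and 12.84 in control, low in control 1 alone. Eif2s3y, another sex-linked gene, stood at 11.17 and 10.03 in ethanol and 11.58 and 9.98 in control. Kdm5d and Uty were likewise higher in ethanol 1 and control 1 than in the other arrays.

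Promoter letters are shown for ER and mitochondrial members that held a searched element. Windows of 300 bases, from 250 before to 50 after an annotated start, were found in RefSeq (GRCm38.p6) for 59 of the 72 members, 76 windows in all. The heat shock element was searched on both strands as GAA, TTC and GAA, each parted from the next by 2 free bases, with overlapping matches counted. It occurred in 198 of 32851 windows (0.603%) and in 6 of the 76 member windows (7.89%), those of Hspd1, Hspe1, Dnajb6 and Hsph1. The Dnajb6 windows with a match share the same bases, as do those of Hsph1, so windows are not separate sites. By gene, the element was held by 4 of the 59 members with a window, against 179 of 27025 genes. Of the 7 heat-inducible members with a window, Hsph1 alone held it, after its start. The ER stress response element, searched on both strands as CCAAT, 9 free bases and CCACG, occurred in 39 windows (0.119%) and in 3 of 13 windows of the ER and membrane members (23.1%). Of 12 windows of other ER chaperones and stress genes it occurred in 4 (33.3%), those of Calr, Canx, Pdia6 and Creld2. A match describes letters only, and a window without one says nothing of the factor.

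Hspd1 and Hspe1, the mitochondrial chaperonin and its lid, are neighbours read in opposite directions. The matches in their windows are the same bases, 2 overlapping elements. The stretch is chr1:55088053-55088082 on the plus strand of GRCm38.p6, 95 to 66 bases before the start of Hspe1 and within the annotated span of Hspd1. Capitals mark the searched letters of both elements.
Hspe1: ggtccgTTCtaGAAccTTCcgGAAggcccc

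The ER element was held by Hspa5 (BiP, the ER Hsp70), Hsp90b1 (Grp94, the ER Hsp90) and Dnajc3 (an ER J protein that also inhibits the kinase PERK). In the same build the Hspa5 stretch is chr2:34771980-34772063 on the plus strand, the Dnajc3 stretch chr14:118937782-118937865 on the plus strand and the Hsp90b1 stretch chr10:86705527-86705662 on the minus strand. They end 27, 67 and 83 bases before the starts of Hspa5, Dnajc3 and Hsp90b1, and no annotated gene lies over them. Capitals mark the searched letters, and Hsp90b1 holds 2 elements in opposite orientation.
Hspa5: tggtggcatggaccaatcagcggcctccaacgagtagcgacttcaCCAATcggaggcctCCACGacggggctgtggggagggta
Dnajc3: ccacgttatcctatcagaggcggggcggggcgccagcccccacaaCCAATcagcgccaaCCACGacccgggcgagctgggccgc
Hsp90b1: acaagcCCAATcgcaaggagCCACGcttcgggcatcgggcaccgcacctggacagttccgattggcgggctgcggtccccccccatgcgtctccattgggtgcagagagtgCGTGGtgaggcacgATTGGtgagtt

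The comparison of ethanol with control arrays asks which chaperone genes differ after the exposure. None of the 72 members passed the test, and most differed little. The median difference, always given as ethanol minus control, was -0.026 for the members and 0.0088 for all genes, and 50 of the 72 differences were under 0.1 in size. Of the members 44 had a value below 0 (61.1%), against 45.8% of all genes. Hspb1 and Hspb8 were the 2 members that differed by at least 1.2-fold, a size reached by 2.31% of all genes, and in both the high array was control 1.

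Limma called 0 members at an adjusted p under 0.05 (0.0% of all genes). At an unadjusted p under 0.05 it gave 1 member, Dnajb4, which was lower, against 2.94% of all genes (1.58% higher and 1.36% lower). With a fold of at least 1.2 as well, 0 members were left, against 1.02% of all genes (0.481% higher and 0.537% lower). That count was 7 without ethanol 2 (6.04% of all genes), among them Hspa1a, Dnajb1 and Hsp90b1, and 6 without control 2 (6.34% of all genes), among them Hspb1 and Hspb8. The groups did not overlap in 22 members (30.6%), against 31.4% of all genes, so the members' share was near the background. In 6 of the 22 both ethanol arrays were higher (8.33% of members, 17.4% of all genes), and in 16 both were lower (22.2% of members, 14.0% of all genes). With 2 arrays against 2, an exact two-sided permutation test of a single gene cannot give a p below 0.333.

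Single arrays shaped much of the variation. Control 1 was the highest array in 30 members (41.7%, against 26.8% of all genes) and ethanol 1 the lowest in 32 (44.4%, against 24.9%). Both held in 19 members (26.4%, against 13.7%).

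**Figure D1:**
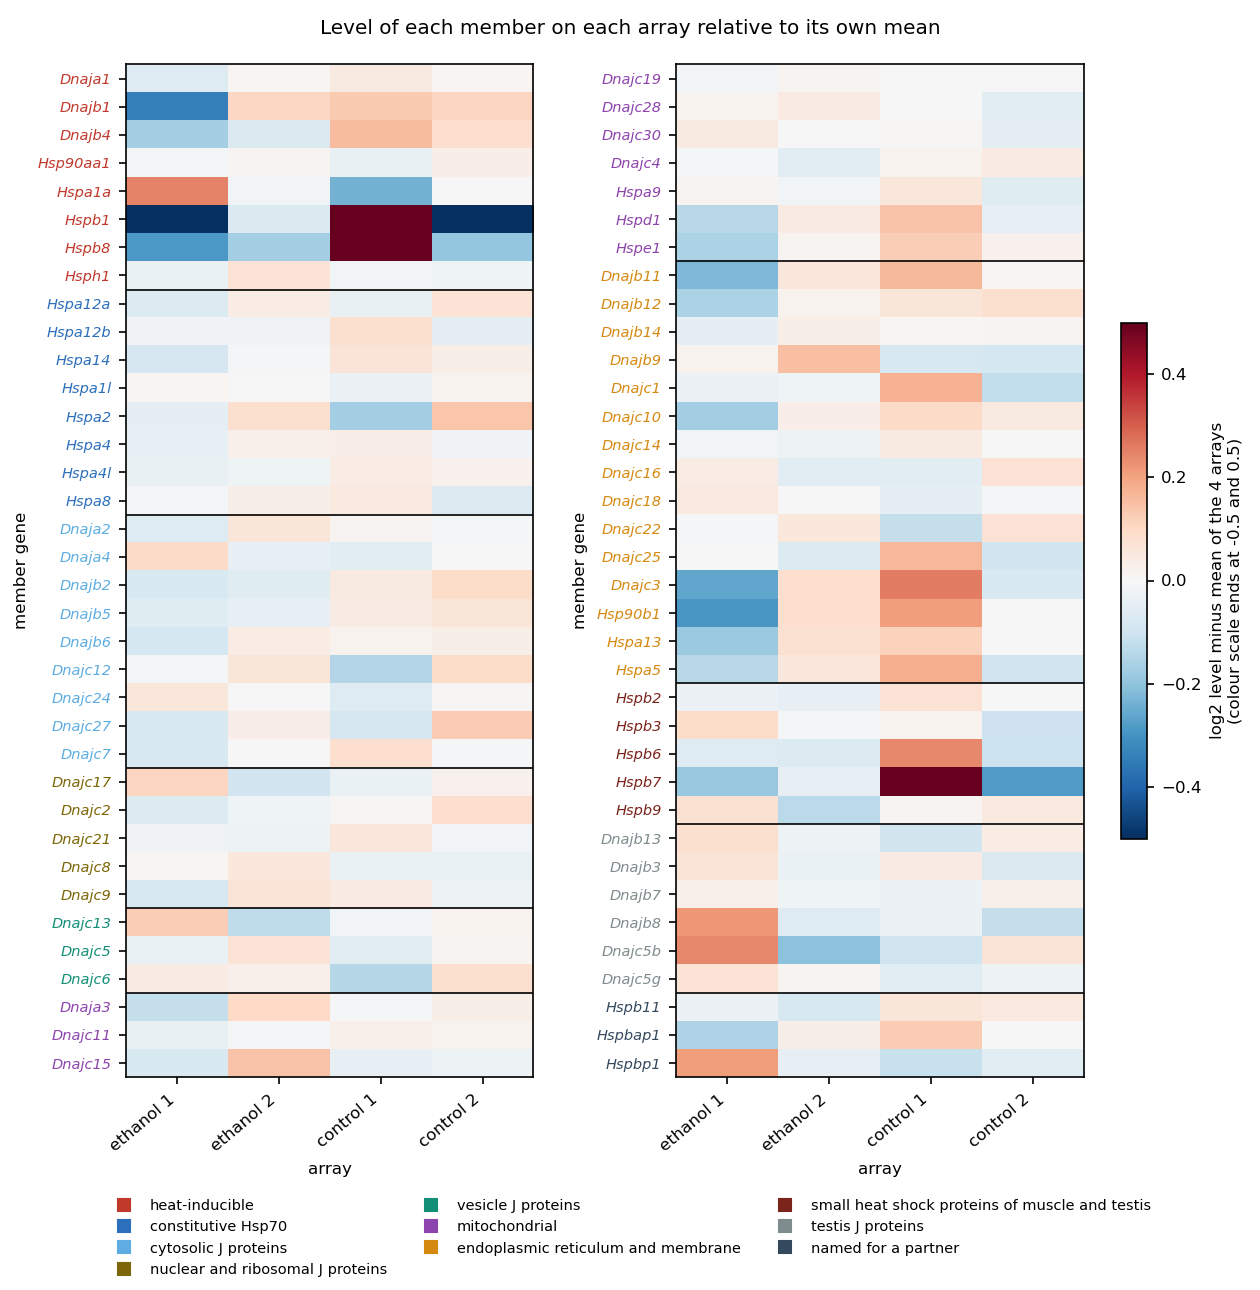
The log2 level of each of the 72 members on each of the 4 arrays, minus its mean over the arrays, in colours that end at -0.5 and 0.5, with gene names coloured by class and lines between classes. Hspb1, Hspb8 and Hspb7 are red on control 1, and Hspa5, Hsp90b1, Dnajc3, Hspd1 and Hspe1 are blue on ethanol 1 and red on control 1.

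**Figure D2:**
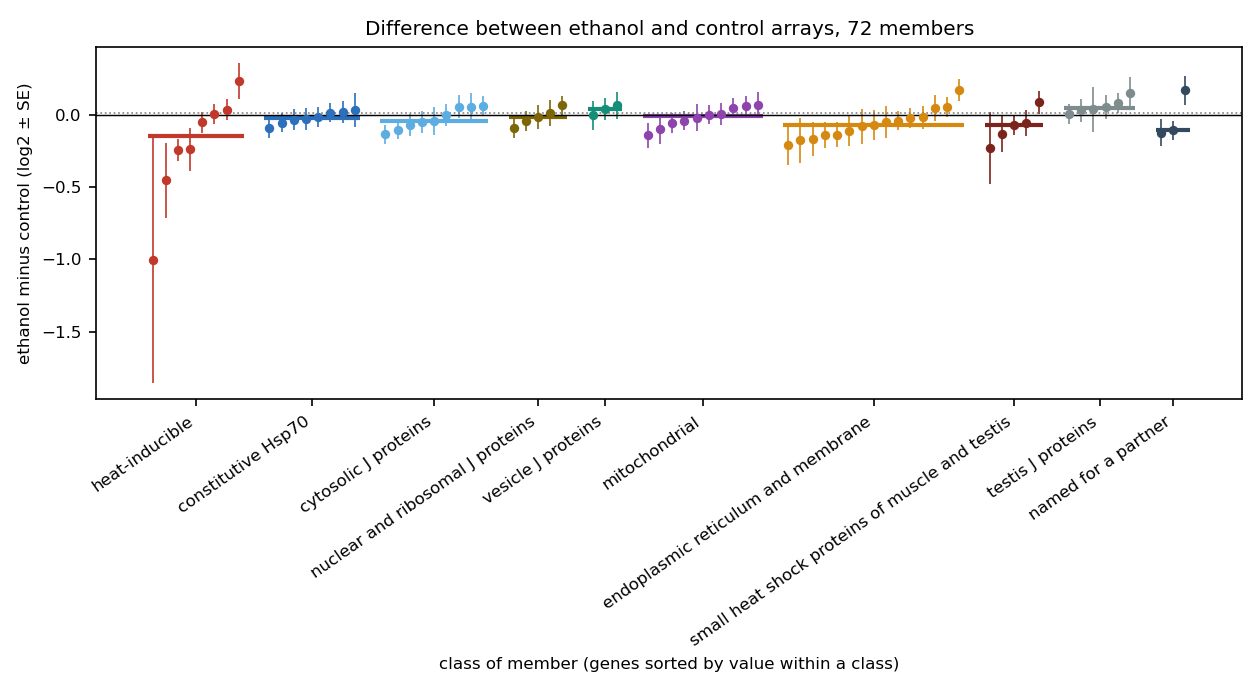
Difference between ethanol and control in log2 for each member (points, with the limma standard error, 2 arrays per group) and the class median (thick lines), with the median of all genes as a dotted line. Hspb1 lies farthest from 0, at -1.002, with the widest error.

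Among the 8 heat-inducible members the differences ran in both directions, 5 below and 3 above 0, with a median of -0.15. Hspa1a, the classic stress-inducible Hsp70, stood at 8.64 and 8.38 in ethanol and 8.16 and 8.39 in control. Ethanol 1 was its high array and control 1 its low one, and the groups overlapped. Its difference was 0.23 ± 0.12 (SE, 2 arrays per group, limma adjusted p = 0.980). A probe set that reads Hspa1a together with its near-identical copy Hspa1b stood at 8.99 and 8.93 in ethanol and 8.98 and 9.02 in control, a difference of -0.040. The sets of this gene pair thus differed in sign, and how the signal divides between the copies is uncertain.

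Dnajb1 (Hsp40), an inducible J protein that serves Hsp70, stood at 8.32 and 8.77 in ethanol and 8.80 and 8.77 in control. Only ethanol 1 was low, and the difference was -0.24 ± 0.15 (limma adjusted p = 0.980). Dnajb4, a J protein of the same subfamily, stood at 10.42 and 10.52 in ethanol and 10.75 and 10.67 in control. Both its ethanol arrays were below both control arrays, with a difference of -0.24 ± 0.074 (limma unadjusted p = 0.0183, adjusted p = 0.980). Left out in turn, the arrays gave -0.29 to -0.20 for Dnajb4. Of the heat-inducible members, the groups did not overlap in these 2 alone (25% of the class, against 31.4% of all genes).

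The other cytosolic stress chaperones differed little. Hsp90aa1, the inducible cytosolic Hsp90, stood at 12.77 and 12.80 in ethanol and 12.74 and 12.81 in control, and its other 2 probe sets differed by -0.0080 and 0.0092. Hsph1 (Hsp110), a nucleotide exchange factor for Hsp70, stood at 10.27 and 10.37 in ethanol and 10.29 and 10.28 in control. Dnaja1, a J protein of the cytosol, stood at 12.08 and 12.15 in ethanol and 12.19 and 12.15 in control. Its second probe set differed by -0.10, and a set that also names Mir207 by 0.049. The groups overlapped in these 3 genes, with differences of 0.0054 ± 0.069, 0.033 ± 0.071 and -0.054 ± 0.069.

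Several small heat shock proteins were highest in control 1. That array was also highest for the skeletal muscle, mitosis, pericyte and meningeal, and endothelial markers. Hspb1 (Hsp25 in the mouse), which protects actin filaments, stood at 7.59 and 8.45 in ethanol and 10.39 and 7.65 in control. Control 1 exceeded control 2 by 2.74 and ethanol 2 exceeded ethanol 1 by 0.86, and the groups overlapped. The second probe set of Hspb1 gave 7.47 and 8.36 in ethanol and 10.38 and 7.54 in control. Hspb1 was the only member whose arrays spanned at least 2-fold (0.592% of all genes). Its difference was -1.002 ± 0.86 (limma adjusted p = 0.980), and without control 1 it was 0.37.

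Hspb8, which works with the co-chaperone Bag3 in clearing damaged proteins, stood at 7.20 and 7.32 in ethanol and 8.14 and 7.29 in control. Only control 1 was high, and without it the difference of -0.46 ± 0.26 (limma adjusted p = 0.980) became -0.034. Bag3 itself stood at 7.45 and 7.53 in ethanol and 7.81 and 7.30 in control, again highest in control 1. Hspb7, a small heat shock protein of heart and skeletal muscle, stood at 6.41 and 6.56 in ethanol and 7.12 and 6.32 in control. Hspb6, also of muscle, stood at 8.68 and 8.68 in ethanol and 8.99 and 8.64 in control. Control 1 was the high array in both, and their differences of -0.23 ± 0.25 and -0.13 ± 0.12 became 0.17 and 0.041 without it.

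Hspb2 and Hspb3, which form a complex in muscle, varied less over the arrays. Hspb2 stood at 6.91 and 6.89 in ethanol and 7.01 and 6.94 in control, and Hspb3 at 6.98 and 6.88 in ethanol and 6.90 and 6.78 in control. Their ranges were 0.12 and 0.19, against 0.79 for Hspb7. Cryab, a small heat shock protein gene next to Hspb2 in the genome, stood at 8.41 and 8.88 in ethanol and 9.85 and 8.32 in control, a range of 1.54 with control 1 highest. Hspb9, a testis gene, stood at 6.28 and 6.07 in ethanol and 6.21 and 6.25 in control, below the lower quartile on every array. In pooled tissue, more cells of a type and more RNA per cell cannot be told apart. The part of RNA from muscle or from other tissues in these values was not tested.

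**Figure D3:**
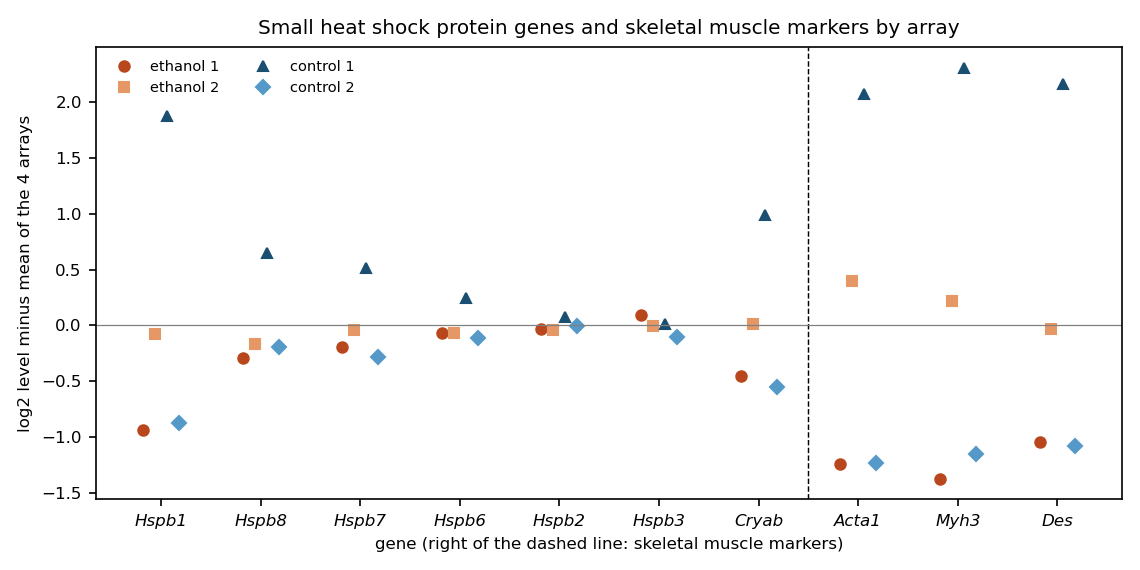
Log2 level minus the mean of the 4 arrays for small heat shock protein genes, Cryab and skeletal muscle markers, with a marker shape for each array. Control 1 is highest in Hspb1, Hspb8, Hspb7, Hspb6, Cryab and the muscle markers.

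The constitutive cytosolic Hsp70 genes and their relatives differed little. The 8 genes, all with the prefix Hspa since Hsp90ab1 was not analysed here, had a median difference of -0.023. Hspa8 (Hsc70), the house-keeping Hsp70 that also uncoats clathrin vesicles, stood at 13.77 and 13.81 in ethanol and 13.83 and 13.71 in control, and its other 2 probe sets differed by -0.0075 and -0.016. Hspa14, a ribosome-associated Hsp70, stood at 9.23 and 9.30 in ethanol and 9.37 and 9.34 in control. Hspa4l, a relative of Hsp110, stood at 9.56 and 9.58 in ethanol and 9.63 and 9.62 in control. In Hspa14 and Hspa4l both ethanol arrays were lower, with differences of -0.094 ± 0.069 and -0.057 ± 0.065 (limma adjusted p = 0.980 for both). Hspa2, an Hsp70 of germ cells, had the widest range of the class, 0.31, set by its control arrays at 6.72 and 7.03.

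The 9 cytosolic J proteins had a median difference of -0.044. Dnajb2 (HSJ1), a neuronal J protein that hands clients to the proteasome, stood at 8.63 and 8.65 in ethanol and 8.75 and 8.80 in control. Dnajb5 stood at 9.75 and 9.77 in ethanol and 9.86 and 9.88 in control. In both genes the arrays of a group lay close together and the groups did not overlap, with differences of -0.14 ± 0.066 and -0.10 ± 0.065 (limma adjusted p = 0.980 for both). Leaving out each array gave -0.16 to -0.11 for Dnajb2 and -0.11 to -0.095 for Dnajb5, and control 2 was the highest array of each. Dnajc12, a co-chaperone of the aromatic amino acid hydroxylases, had the widest range, 0.24, with overlapping groups. Dnajb6, which suppresses protein aggregation, differed by -0.049 on the set of its own symbol, and by -0.051 to -0.037 on 4 sets that also name Gm4247.

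In 6 of the 15 ER and membrane members ethanol 1 was lowest and control 1 highest (40%, against 13.7% of all genes). This order was not particular to the ER. It held in 5 of 8 heat-inducible members (62.5%), 3 of 10 mitochondrial members (30%) and 3 of 15 other ER chaperones and stress genes (20%). Of the 15 ER and membrane members 12 had a value below 0, with a median of -0.070. Hspa5 stood at 11.19 and 11.39 in ethanol and 11.51 and 11.23 in control. Hsp90b1 stood at 11.53 and 11.91 in ethanol and 12.04 and 11.83 in control. Dnajc3 stood at 8.51 and 8.85 in ethanol and 9.02 and 8.69 in control. In these 3 genes the arrays took the same order from ethanol 1 through control 2 and ethanol 2 to control 1, and the groups overlapped. Of the 4 genes of the other ER list with the element, Creld2 took this order, at 9.14 and 9.36 in ethanol and 9.39 and 9.24 in control, while control 2 was the lowest array in Calr, Canx and Pdia6.

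Dnajb11, a J protein of BiP in the ER lumen, stood at 9.06 and 9.34 in ethanol and 9.45 and 9.29 in control. Dnajc10, an ER disulfide reductase with a J domain, stood at 9.45 and 9.66 in ethanol and 9.72 and 9.67 in control. Hspa13, a microsomal Hsp70, stood at 9.89 and 10.15 in ethanol and 10.19 and 10.07 in control. Ethanol 1 was again lowest and control 1 highest, and of these 3 the groups were apart in Dnajc10 alone. These and the 3 genes before them are 6 of the 15 ER and membrane members, set apart after their values were seen.

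The differences of the 6 genes ran from -0.21 ± 0.14 for Hsp90b1 to -0.080 ± 0.12 for Hspa5 (limma adjusted p = 0.980 for both), and depended on the arrays paired. Ethanol 1 minus control 1 was -0.50 in Hsp90b1, -0.51 in Dnajc3 and -0.32 in Hspa5. Ethanol 2 minus control 2 was 0.086, 0.16 and 0.16 in the same genes. Ethanol 1 was also lowest and control 1 highest in 6 of 6 mitosis markers, whose log2 summed brightness was 12.26 and 12.53 in ethanol and 12.81 and 12.41 in control. For the pericyte and meningeal markers the sums were 12.11 and 12.51 against 12.96 and 12.28. Ethanol 1 was lowest and control 1 highest in 4 of these 6 markers. Ptgds was lowest in ethanol 2, at 11.13 and 10.89 in ethanol and 11.45 and 11.42 in control. The part of these cells in the ER values was not tested.

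Dnajb9 (ERdj4), an ER J protein induced by the unfolded protein response, had the largest positive difference of the class. It stood at 10.74 and 10.87 in ethanol and 10.64 and 10.64 in control. Both ethanol arrays were higher, by 0.17 ± 0.076 (limma unadjusted p = 0.0725, adjusted p = 0.980), and its control arrays differed by 0.0062, where those of Hspa5 differed by 0.28. Dnajb12, an ER membrane J protein, stood at 9.22 and 9.40 in ethanol and 9.44 and 9.46 in control, a difference of -0.14 ± 0.083 with no overlap. Dnajc14 and Dnajc18 were also apart, at -0.041 and 0.051.

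The 10 mitochondrial members had a median difference of -0.011, and the chaperonin pair lay farthest from 0. Hspd1 (Hsp60) stood at 11.47 and 11.65 in ethanol and 11.75 and 11.57 in control. Hspe1 (Hsp10), its lid, stood at 11.24 and 11.41 in ethanol and 11.52 and 11.42 in control. In both neighbours ethanol 1 was lowest and control 1 highest. The differences were -0.10 ± 0.10 and -0.14 ± 0.088 (limma adjusted p = 0.980 for both), and the second probe sets gave -0.17 and -0.10. The groups overlapped in Hspd1 and were apart in Hspe1. On the second set of Hspe1, at 11.17 and 11.34 in ethanol and 11.41 and 11.30 in control, they overlapped. Groups were apart in 4 of the 10 members (40%, against 31.4% of all genes), the others being Dnajc4, Dnajc11 and Dnajc28.

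Hspa9 (mortalin), the mitochondrial Hsp70 that imports proteins together with the J protein Dnajc19, stood at 11.38 and 11.35 in ethanol and 11.42 and 11.31 in control. Dnajc19 stood at 10.10 and 10.12 in ethanol and 10.11 and 10.11 in control, a range of 0.028. These parts of the import motor differed by 0.0034 and -0.0019, with overlapping groups. Dnajc15, a relative of Dnajc19, stood at 9.52 and 9.74 in ethanol and 9.56 and 9.57 in control, where only ethanol 2 was high. Dnaja3 (Tid1), a J protein of the matrix, stood at 9.21 and 9.42 in ethanol and 9.32 and 9.36 in control, lowest in ethanol 1.

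**Figure D4:**
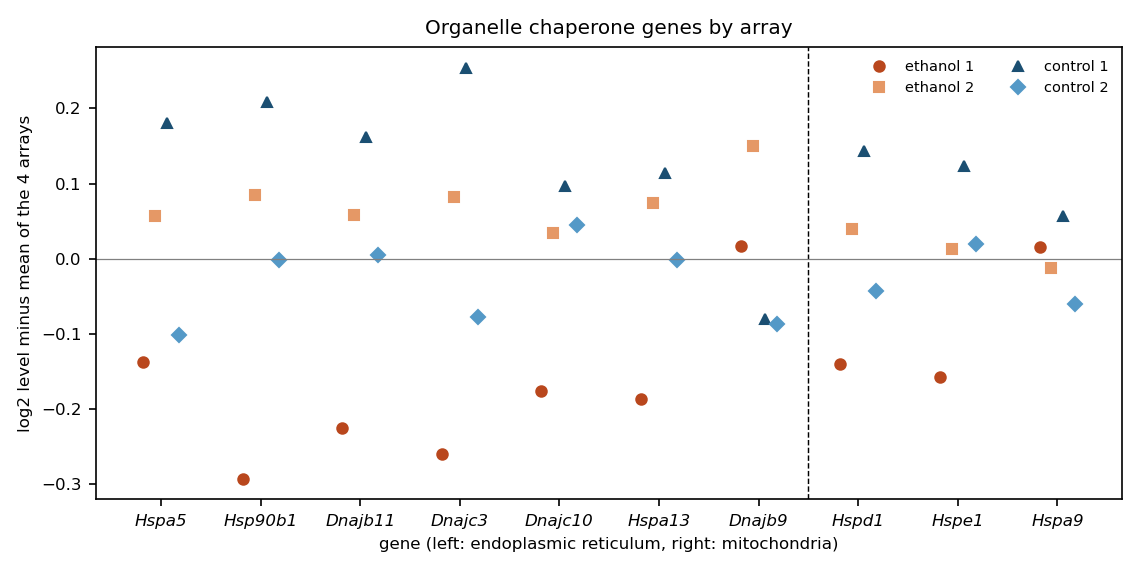
Log2 level minus the mean of the 4 arrays for ER and mitochondrial members, with a marker shape for each array. Control 1 is highest and ethanol 1 lowest in Hspa5, Hsp90b1, Dnajb11, Dnajc3, Dnajc10, Hspd1 and Hspe1, while in Dnajb9 both ethanol arrays are above both control arrays.

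Of the 3 J proteins with vesicle tasks, Dnajc5 (cysteine string protein, a chaperone of synaptic SNARE proteins) stood at 11.87 and 11.97 in ethanol and 11.85 and 11.91 in control. Dnajc6 (auxilin), which brings Hspa8 to clathrin coats, stood at 11.32 and 11.31 in ethanol and 11.14 and 11.36 in control, with control 1 alone low. Dnajc13 (RME-8), an endosomal J protein, depended on the probe set. Its brightest set differed by -0.0037 ± 0.10, while its other 14 sets all lay below 0, from -0.25 to -0.0045 with a median of -0.14. The brightest set was highest in ethanol 1, and 13 of the other 14 were highest in control 1.

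The 5 nuclear and ribosomal J proteins had a median of -0.016. Dnajc2 (zuotin), which sits on the ribosome, stood at 9.43 and 9.48 in ethanol and 9.51 and 9.59 in control. Dnajc8, a splicing-associated J protein, stood at 9.32 and 9.37 in ethanol and 9.28 and 9.28 in control. The groups did not overlap in either, with Dnajc2 at -0.089 ± 0.070 and Dnajc8 at 0.065 ± 0.066. Dnajc17 had the widest range, 0.20, with overlapping groups.

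All 6 J proteins of the testis had values above 0, with a median of 0.045, and were highest in ethanol 1. That array also had the highest lower quartile of all values (6.55, against 6.46 in ethanol 2, 6.45 in control 1 and 6.47 in control 2). Dnajb8 stood at 6.57 and 6.28 in ethanol and 6.32 and 6.23 in control, a difference of 0.15 ± 0.11, with ethanol 1 alone high. Dnajc5g differed by 0.081 ± 0.067, and like Dnajb7 it lay below the lower quartile of every array. Dnajc5b had the widest range of the class, 0.44.

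Of the members named for a partner, Hspbp1, an exchange factor of Hsp70, stood at 11.42 and 11.17 in ethanol and 11.10 and 11.16 in control. Its difference of 0.17 ± 0.099 (limma adjusted p = 0.980) came with ethanol 1 alone high. Hspb11, a subunit of the ciliary transport machinery, stood at 8.84 and 8.78 in ethanol and 8.92 and 8.91 in control, lower in both ethanol arrays, with a difference of -0.11 ± 0.067. Hspbap1 differed by -0.13 ± 0.093, with ethanol 1 lowest and control 1 highest.

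Set side by side, the median difference was -0.15 for the 8 heat-inducible members, -0.031 for the 17 constitutive cytosolic members and -0.042 for the 25 organelle members, against 0.0088 for all genes. The difference between classes was not tested, since members of a class are not replicates. Over Hspa1a, Hspb1, Hsph1, Hsp90aa1 and Dnajb1 alone the heat-inducible median was 0.0054. Over all 8 heat-inducible members it was -0.017 without ethanol 1 and -0.032 without control 1. The ER and membrane median ranged from -0.17 without control 2 to -0.019 without ethanol 1.

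**Figure D5:**
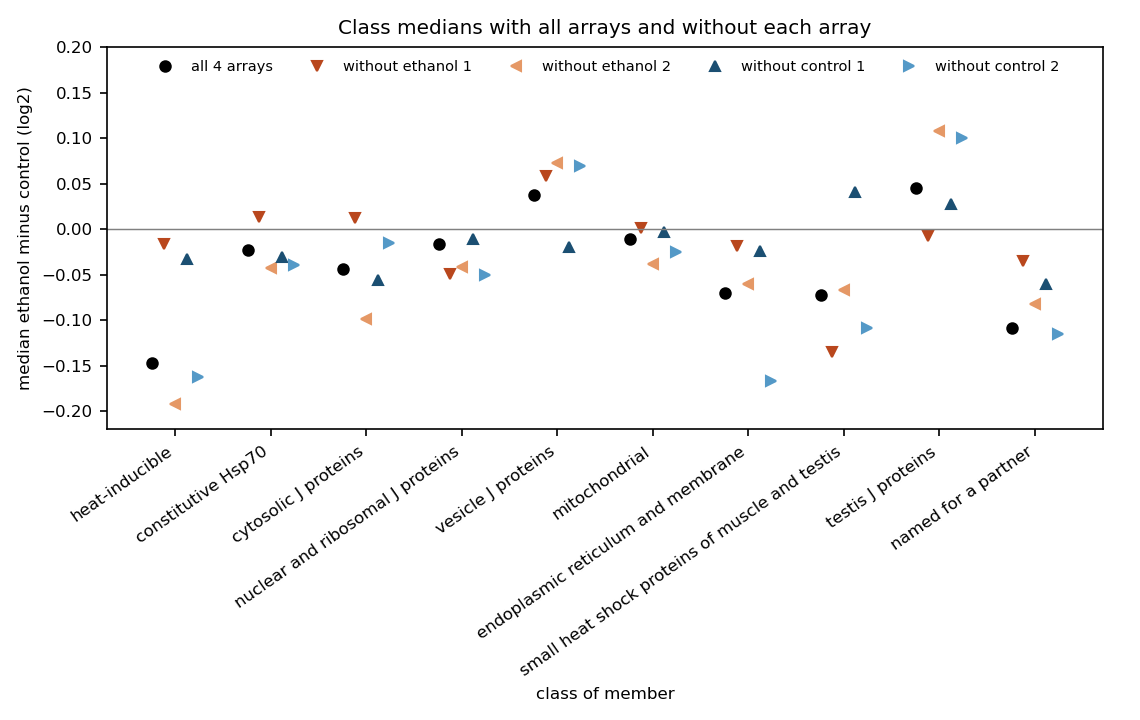
Median difference between ethanol and control (log2) of each class with all 4 arrays (black circles) and without each array in turn (triangles). The heat-inducible median lies nearer 0 without ethanol 1 (-0.017) or control 1 (-0.032), and that of the small heat shock proteins of muscle and testis turns to 0.041 without control 1.

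Genes that work with the family were read from lists of their own. Of 20 co-chaperones 12 had values below 0 (median -0.049), and 1 had an unadjusted p under 0.05. That gene was Fkbp5, an Hsp90 co-chaperone that glucocorticoids induce, at 8.73 and 8.73 in ethanol and 8.90 and 8.90 in control. The arrays of each group lay close together, and the difference was -0.17 ± 0.065 (limma unadjusted p = 0.0410, adjusted p = 0.980). Cdc37l1, a relative of the kinase co-chaperone Cdc37, was at -0.11 ± 0.067.

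Of the 13 genes of the chaperonin CCT and of prefoldin, which fold actin and tubulin, 9 had values below 0 (median -0.079), and ethanol 1 was the lowest array in 11. Cct6a was at -0.14 ± 0.082. Pfdn2, a prefoldin subunit, stood at 11.48 and 11.44 in ethanol and 11.23 and 11.32 in control, higher in both ethanol arrays by 0.19 ± 0.071 (limma unadjusted p = 0.0399, adjusted p = 0.980). Of 15 other ER chaperones and stress genes 9 were below 0 (median -0.034) and 0 had an unadjusted p under 0.05, with Hyou1, an ER exchange factor, at -0.12 ± 0.079 and Pdia3, a disulfide isomerase, at -0.16 ± 0.12. The unfolded protein response genes Ddit3, Xbp1 and Atf4 were at -0.035 ± 0.12, 0.00090 ± 0.071 and -0.011 ± 0.066.

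Of 8 other mitochondrial chaperones and proteases 5 were below 0 (median -0.035), with Lonp1, a matrix protease, at -0.096 ± 0.075 and Grpel2, an exchange factor, at -0.080 ± 0.069. The 4 measured heat shock factors and partners lay above 0 (median 0.040). Hsf4, a factor of the lens, was at 0.16 ± 0.074 and below the lower quartile on every array, and Hsbp1, a heat shock factor binding protein, was at 0.056 ± 0.081. Hsf1 was not analysed here. Cryaa, the lens crystallin, was at 0.17 ± 0.096 and Cryab at -0.44 ± 0.48.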

How the data were processed

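The authors deposited log2 brightness for each probe set on each array, with the base inferred from the range. The submitters' processing notes name Partek 6.6, while background correction, normalization, summary method and build are not stated. Of 35556 probe sets, 21789 had 1 symbol in the platform annotation, 1621 several and 12146 none. Updating symbols by Entrez identifier (21698 matched) changed 0. The number of unassigned sample columns was 0.

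Limma 3.58.1 in R 4.3.3 (lmFit, eBayes, two-sided; 2 residual and 5.65 total degrees of freedom) was run over 19938 genes with Benjamini-Hochberg adjustment at 0.05. Counts at an unadjusted p of 0.05, with or without a fold of 1.2, were added. The number of arrays limits precision (median standard error 0.079). The fit was tested on simulated data. Members and lists were chosen with earlier results of these data known. Named were the heat-inducible and Hspb genes, the 2 smallest p and widest range of each other class, members at an unadjusted p under 0.05 and 2 genes of each other list; further genes were named after their values were seen. Alternatives were scalings, probe set rules, a filter on dim genes, variance models, a replicate block, a fold of 1.5 and leaving out each array.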

Additional observations from a re-analysis of the deposited data

How the results depend on the processing

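No member passed an adjusted p under 0.05 under any alternative run, including the replicate block. The 1 member at an unadjusted p under 0.05 (Dnajb4) became 2 with Dnajb9 after repeated quantile normalization and with a variance trend. These were 2.78% of members, against 3.47% and 3.11% of all genes. Over every probe set the count was 3 probe sets of 2 members, Dnajb4 and Dnajc13 (3.16% of member sets, against 2.9% of all sets). The ordinary test without shared variance gave 3, Dnajb2, Dnajb5 and Hspa4l, without Dnajb4 (3.85% of all genes). With an array left out the count ranged from 0 to 9, the members that also reached 1.2-fold from 0 to 7, and the members with groups apart from 36 to 56. The 36 (50% of members) stood beside 58.4% of all genes without ethanol 1, and the 56 (77.8%) beside 74.4% without ethanol 2. Without control 2 Hspb1 stood at -2.37 and Hspb8 at -0.88. With the replicate block the members at an unadjusted p under 0.05 stayed at 1 (1.34% of all genes). The deviations of same-numbered arrays correlated at -0.484, so the numbers were not taken as a pairing. Crossed pairing, added after the data were seen, gave 6 members at an unadjusted p under 0.05 (8.33%, against 7.34% of all genes) and 2 with the fold (2.78%, against 1.87%). Over every probe set the median of all members became -0.045 and that of the vesicle class -0.10, with Dnajc13 counted through its 15 probe sets. After repeated quantile normalization the nuclear class stood at 0.0094, the mitochondrial class at 0.011 and all members at -0.010. The core list moved the heat-inducible median to 0.0054. With an array left out, class medians ranged from -0.19 to -0.017 (heat-inducible), -0.042 to 0.013 (constitutive Hsp70), -0.099 to 0.012 (cytosolic J), -0.050 to -0.011 (nuclear), -0.019 to 0.072 (vesicle), -0.039 to 0.0010 (mitochondrial), -0.17 to -0.019 (ER), -0.14 to 0.041 (small heat shock), -0.0076 to 0.11 (testis) and -0.12 to -0.035 (partner). Signs changed in 23 of 606 values of single genes, 20 of them with an array left out, and none of these was past the adjusted threshold. After quantile normalization Dnajc13 stood at 0.0091 and Dnajc5b at -0.0040, and after centring Dnajc13 at 0.0017. The ranges with an array left out were -2.37 to 0.37 (Hspb1), -0.31 to 0.041 (Hspb6), -0.63 to 0.17 (Hspb7), -0.16 to 0.044 (Hspb9), -0.031 to 0.042 (Hsp90aa1), -0.017 to 0.084 (Hsph1), -0.12 to 0.19 (Hspa2), -0.063 to 0.17 (Dnajc12), -0.089 to 0.11 (Dnajc17), -0.046 to 0.18 (Dnajc6), -0.013 to 0.088 (Dnajc5), -0.13 to 0.12 (Dnajc13), -0.19 to 0.26 (Dnajc5b), -0.021 to 0.13 (Hsbp1) and -1.21 to 0.33 (Cryab). The cause of these changes was not tested.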

Other observations

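Red cell and microglia markers were read as well. The log2 summed brightness of 3 red cell markers was 10.12 and 10.66 in ethanol and 10.97 and 9.99 in control. Of the 3 only Hbb-y spanned at least 2-fold, at 7.47 and 9.08 in ethanol and 9.92 and 7.13 in control. Alas2 and Hbb-bh1 were highest in ethanol 2. The log2 summed brightness of 4 microglia markers was 9.81 and 9.70 in ethanol and 9.90 and 9.67 in control.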
